A study of Mus musculus with 4 samples.

Results

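The densely altered stretches of mouse embryonic fibroblasts (MEFs) are runs of neighbouring 5 kb genome bins that the authors listed as differing in 5-hydroxymethylcytosine (5hmC) between LSH knockout and wild-type cells. Listed MEF bins on chromosomes 1 to 19 were joined where the gap between them was at most 10 kb, and a stretch was kept where it held 4 or more listed bins. This gave 155 of 6845 stretches and 746 bins, 8.36% of the 8920 bins listed on these chromosomes (95% exact binomial interval 7.80% to 8.96%). The listed bins were 1.86% of all 5 kb bins of these chromosomes, and the list held 9002 bins over all sequences. Because that list itself chose the members, their number and their closeness are a description of the list, not a result about them.

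5hmC was captured from genomic DNA and sequenced in 4 groups with 1 library each: MEFs with LSH knocked out, wild-type MEFs, embryonic stem (ES) cells with LSH knocked out and wild-type ES cells. The authors deposited 1 list of altered bins per cell type. The labels name no strain, allele, age, embryo, clone or passage, and with 1 library a group the variation between embryos or cultures is unknown. The lists give positions only, so whether a bin gained or lost 5hmC in LSH knockout cells, by how much, and with what error is not known here, and the labelled cell type could not be checked against expressed markers. Intervals in the text are exact binomial or order-statistic intervals at the 95% level, cover counting error over bins, and treat neighbouring bins as separate although they are not.

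LSH, the product of the gene Hells, is a chromatin remodelling enzyme of the SNF2 family that is needed for normal cytosine methylation of the genome in mouse development. 5hmC is made from 5-methylcytosine, mostly at CpG dinucleotides, by the TET enzymes, and is known to be enriched in gene bodies and at enhancers. MEFs are connective tissue cells grown from embryos and are known for making collagen and elastic fibres. The Hells locus itself, on chromosome 19 from 39005405 to 39045541, held 0 listed bins in MEFs and 0 in ES cells.

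The 5 stretches with most listed bins are shown first by sequence, since CpG dinucleotides are the sites at which 5hmC is mostly found. For each stretch the 300 bases of its listed bins with most CpG outside annotated exons are printed, plus strand, NCBIM37 (mm9), with each CpG in capitals.
Eln stretch, chr5:135261892-135262191: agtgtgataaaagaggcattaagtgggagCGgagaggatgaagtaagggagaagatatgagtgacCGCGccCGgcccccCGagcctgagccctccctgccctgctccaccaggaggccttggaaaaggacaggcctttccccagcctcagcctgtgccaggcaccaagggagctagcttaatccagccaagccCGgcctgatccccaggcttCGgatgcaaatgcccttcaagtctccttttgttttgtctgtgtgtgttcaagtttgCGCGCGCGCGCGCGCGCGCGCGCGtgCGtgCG
Stretch near Gata4 and Blk, chr14:63962550-63962849: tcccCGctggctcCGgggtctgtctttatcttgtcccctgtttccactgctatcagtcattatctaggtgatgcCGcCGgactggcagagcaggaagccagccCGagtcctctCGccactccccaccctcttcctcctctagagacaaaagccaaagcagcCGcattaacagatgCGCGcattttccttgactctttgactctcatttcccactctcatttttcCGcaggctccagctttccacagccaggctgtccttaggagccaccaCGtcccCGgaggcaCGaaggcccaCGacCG
Rhou stretch, chr8:126200157-126200456: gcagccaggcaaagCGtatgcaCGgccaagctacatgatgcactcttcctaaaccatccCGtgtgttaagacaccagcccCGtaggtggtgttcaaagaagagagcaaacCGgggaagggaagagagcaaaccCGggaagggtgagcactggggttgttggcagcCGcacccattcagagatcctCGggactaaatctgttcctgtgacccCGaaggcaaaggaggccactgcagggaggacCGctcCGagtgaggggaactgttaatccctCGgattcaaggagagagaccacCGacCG
Edar stretch, chr10:58121595-58121894: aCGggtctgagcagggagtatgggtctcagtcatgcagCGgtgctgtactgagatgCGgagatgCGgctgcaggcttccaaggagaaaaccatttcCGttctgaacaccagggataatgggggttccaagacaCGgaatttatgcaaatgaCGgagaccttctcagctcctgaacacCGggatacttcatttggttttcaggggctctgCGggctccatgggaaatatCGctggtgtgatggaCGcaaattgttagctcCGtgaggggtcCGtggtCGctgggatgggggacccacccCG
Gas6 stretch, chr8:13493541-13493840: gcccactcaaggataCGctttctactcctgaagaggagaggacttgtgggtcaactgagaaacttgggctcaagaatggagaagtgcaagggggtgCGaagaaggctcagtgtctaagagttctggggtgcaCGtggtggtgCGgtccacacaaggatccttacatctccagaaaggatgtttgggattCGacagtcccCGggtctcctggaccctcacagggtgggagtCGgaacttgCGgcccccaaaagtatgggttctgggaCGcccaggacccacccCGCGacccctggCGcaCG
These windows held 21 CpG in the Eln stretch, 15 in the stretch near Gata4 and Blk, 14 in the Rhou stretch, 15 in the Edar stretch and 13 in the Gas6 stretch. With exons included, the most CpG in any 300 bases of a listed bin were 38 in the Gas6 stretch and 20 in the Edar stretch. In the other stretches these counts were the same as outside exons. The window of the Eln stretch ended in an alternating run of C and G, and in the others the CpG were spread out. Which of these CpG carried 5hmC is not known from lists of 5 kb bins.

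A promoter bin, one that overlaps the 1 kb on either side of an annotated gene start, was a member at Edar and at Gas6, and their promoters are printed for that reason. The 250 bases before each start are from RefSeq (GRCm38.p6) and were located once in NCBIM37, with CpG in capitals.
Edar promoter, chr10:58138445-58138694, minus strand: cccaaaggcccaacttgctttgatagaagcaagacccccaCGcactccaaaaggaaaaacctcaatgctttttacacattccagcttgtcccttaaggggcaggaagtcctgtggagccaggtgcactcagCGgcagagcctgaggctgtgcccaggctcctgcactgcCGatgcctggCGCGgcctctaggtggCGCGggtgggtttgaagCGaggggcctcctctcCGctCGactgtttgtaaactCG
Gas6 promoter, chr8:13494536-13494785, minus strand: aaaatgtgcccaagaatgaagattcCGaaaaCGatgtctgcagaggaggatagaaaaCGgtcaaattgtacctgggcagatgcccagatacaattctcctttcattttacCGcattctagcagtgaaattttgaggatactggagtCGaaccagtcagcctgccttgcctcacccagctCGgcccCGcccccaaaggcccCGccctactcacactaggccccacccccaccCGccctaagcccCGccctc
The Edar promoter held 11 CpG and no GGGCGG on either strand, and the Gas6 promoter held 10 CpG and 4 copies of that GC box. The sequence TATAAA, the core of a TATA box, was in neither window on either strand.

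**Figure D1:**
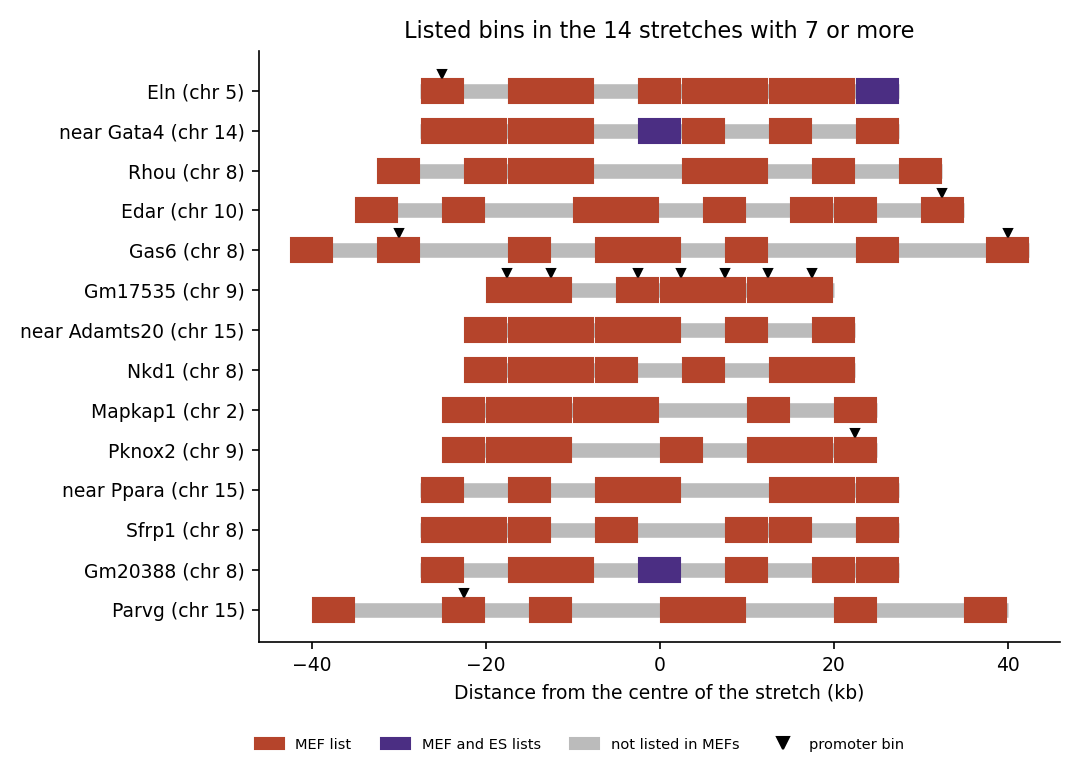
Maps of the 14 dense MEF stretches with 7 or more listed bins, each on its own row, against distance from the centre of the stretch in kb. Red bins are on the MEF list, purple bins on both the MEF and ES lists and grey bins not on the MEF list, and triangles mark promoter bins. The Eln stretch on the top row has 9 of 11 bins listed, and Edar and Gas6 are listed more loosely over wider spans.

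The stretch with most listed bins lay upstream of Eln, which encodes elastin, the core protein of elastic fibres. On chromosome 5, from 135220001 to 135275000, 9 of 11 bins were listed, 6 of them in an unbroken run, a length reached in the dense stretches only here and at 0610012H03Rik. Eln is read from the minus strand, with its start at 135223111, so that 1 member bin covered its promoter and the other 8 were intergenic, with the farthest bin centred 49.4 kb upstream. From the lowest position upward the listed bins held 17.6, 14.6, 13, 14.6, 13, 10.0, 19.2, 10.8 and 15.2 CpG per kb. All 9 were thus above the 7.2 CpG per kb that was the median of all bins, and the last of them was also on the ES list.

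Gas6 encodes a secreted ligand of the TYRO3, AXL and MERTK receptors. Its stretch, on chromosome 8 from 13480001 to 13565000, was the widest of all at 85 kb and held 8 listed bins among 17. Of these, 2 had their centre in the gene and 6 lay upstream, up to 68.0 kb from the start. The bin at its start held 30.4 CpG per kb. As at Eln, most of the stretch lay on the upstream side of the gene, here reaching the promoter bin of 1700029H14Rik at 13560001. The stretches of Edar, Rhou and Sfrp1, the last also a gene for a secreted protein, had 0 bin centres upstream.

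Edar encodes the ectodysplasin A receptor, needed for hair, tooth and sweat gland development. Its stretch covered 58070001 to 58140000 on chromosome 10, nearly the length of the 74.9 kb gene, and all 8 listed bins, of 14, overlapped it. The bin centres ran from 0.901 kb to 65.9 kb downstream of the start, and 1 bin was a promoter bin, 2 were exon bins and 5 were intron bins. These were all of the listed MEF bins in the gene, and Edar held 0 bins of the ES list.

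The stretch near Gata4 and Blk, on chromosome 14 from 63935001 to 63990000, held 8 listed bins of 11, all intergenic. Gata4 encodes a transcription factor of heart and endoderm, and Blk a tyrosine kinase of B cells. The stretch lay 44.5 kb from the nearest coding start, that of Gata4, and 1.67 kb from the nearest coding gene body, that of Blk. The bin from 63960001, which held the printed window, was also on the ES list.

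Rhou encodes a small GTPase. The stretch called by it, on chromosome 8 from 126185001 to 126250000, held 8 listed bins of 13, of which 1 was in the gene and 7 lay beyond its end, up to 59.7 kb. Those 7 lay only within Gm20388, a predicted gene model 4435 kb long that contains 84 other genes. Placement in such a wide model says little about a gene, so Gm20388 is named only where no other gene is hit.

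Components of WNT signalling came from a list of 71 genes found in the annotation, of which 2, Nkd1 and Sfrp1, had a bin of a dense stretch. Genes outside the list as chosen, such as Dact2 with 3 member bins, are not in this count. Over all genes on these chromosomes, 154 of 24930 (0.618%) had such a bin, 14.6% had a listed MEF bin and 20.7% had a bin of the ES list, a gene being counted over its body and 5 kb upstream. Nkd1, an antagonist of Dishevelled, had 7 listed bins of 9 on chromosome 8 from 91085001 to 91130000, with 5 bin centres in the gene and 2 beyond its end, up to 8.71 kb. Sfrp1, a secreted protein that binds WNT ligands, had 7 listed bins of 11 on chromosome 8 from 24540001 to 24595000, with 3 centres in the gene and 4 beyond its end, up to 32.4 kb. Of the same list 25 genes had a listed MEF bin and 26 had an ES bin. Neither of the dense stretches touched the start of its gene.

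The mTOR and PI3K list had 2 of 24 genes with a dense stretch, Mapkap1 and Prr5l, which encode a subunit and a binding partner of mTOR complex 2. At Mapkap1, chromosome 2 from 34440001 to 34490000, 7 of 10 bins were listed, 6 of them centred in the 218 kb gene at its downstream end. At Prr5l the 4 bins from 101690001 to 101710000 on chromosome 2 were all listed and all lay in the gene. The list held 12 genes with a listed MEF bin and 10 with an ES bin.

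In the list of receptor tyrosine kinases and ligands, 2 of 61 genes had a dense stretch, Gas6 and Fgfr2, with 29 having a listed MEF bin and 25 an ES bin. The annotated Fgfr2 model was 3009.1 kb long, and its 4 bins were centred 2987.5 to 3007.5 kb from its start. All 4 were exon bins at the downstream end of the model, but the distance from the start rests on a single very wide model. The TGF-beta and BMP list had 1 of 52, Acvr1b, an activin receptor, against 19 with a MEF bin and 20 with an ES bin. The ectodysplasin and TNF receptor list had 1 of 17, Edar, against 6 with a MEF bin and 7 with an ES bin. Beside these lists, the shares over all genes were 0.618% with a dense bin, 14.6% with a MEF bin and 20.7% with an ES bin.

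The extracellular matrix and elastic fibre list had 2 of 88 genes with a dense stretch, Eln and Adamtsl1, a secreted protein of the ADAMTS-like family. The list as chosen leaves out Col6a5, Col6a6 and Col17a1, collagen genes with dense bins that are described below, and the kinase list leaves out Angpt4, so these counts do not cover all genes of such kinds. It had 47 genes with a listed MEF bin and 23 with an ES bin. Fibroblast markers had 0 of 29 genes with a dense stretch, 14 with a listed MEF bin and 3 with an ES bin. Blood cell markers had 0 of 19, with 0 in MEFs and 4 in ES cells, although the 8-bin stretch lay beside Blk, a member of that list. The 14 fibroblast marker genes with a MEF bin thus had none in a dense stretch, and no list was tested against the others. Over all genes 3642 had a listed MEF bin and only 154 (0.618%) a dense bin. With lists this short nothing is read from a count of 0, here or below.

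The homeobox and developmental factor list had 1 of 116 genes with a dense stretch, Tshz2, a zinc finger and homeobox factor with 5 member bins, with 28 in MEFs and 33 in ES cells. The list as chosen leaves out Pknox2, Wt1 and Zfhx3, which held 7, 6 and 4 member bins. Its count therefore does not cover all genes of such kinds. The Hox list had 3 of 39, Hoxb2, Hoxb3 and Hoxb4, all from 1 stretch of 4 bins, with 7 in MEFs and 12 in ES cells. DNA methylation, hydroxymethylation and LSH partner genes had 0 of 26, with 4 in MEFs (Dnmt3a, Dnmt3b, Tet1 and Uhrf2) and 11 in ES cells. Imprinted genes had 1 of 44, Ddc, with 12 in MEFs and 18 in ES cells. The shares over all genes were 0.618% with a dense bin, 14.6% with a MEF bin and 20.7% with an ES bin. The genes of these lists differ in length, from a median of 4.06 kb for Hox genes to 77.7 kb for receptor tyrosine kinases and ligands, against 13.7 kb for all genes, and a longer gene has more bins that can be listed.

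The Hoxb stretch, on chromosome 11 from 96180001 to 96210000, held the most island-like bins of any dense stretch. Its 4 listed bins held 31.2, 21.6, 21.8 and 35.6 CpG per kb, and each held at least 1 window of 500 bases that met the CpG island measures (GC at least 55%, observed to expected CpG at least 0.65). A second stretch, 20 kb farther on and nearest to Hoxb1, from 96230001 to 96285000, held 6 listed bins of 11, all intergenic, with a median of 10.2 CpG per kb. Hoxb genes encode the homeodomain factors that pattern the hindbrain and trunk.

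Among other transcription factor genes, Wt1, which encodes a zinc finger factor of kidney and gonad development, and the neighbouring 0610012H03Rik formed a pair. The stretch from 104960001 to 105005000 on chromosome 2 held 6 listed bins of 9, and that from 105050001 to 105080000 held 6 of 6, the longest fully listed stretch. Both held 1 bin of the ES list. Wt1 had 11.5 member bins per 100 kb, and its 6 member bins were all of its listed MEF bins. Pknox2, a homeodomain factor of the TALE class, had 7 listed bins of 10 on chromosome 9 from 36905001 to 36955000, all within the first 50 kb of a 256 kb gene. Its promoter bin held 41.6 CpG per kb, while the median of the 7 was 8.4.

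Several of the genes with the most member bins or the longest stretches act in signalling inside the cell. Rgs3, a regulator of G protein signalling, held 11 member bins in 2 stretches on chromosome 4, from 62255001 to 62290000 and from 62305001 to 62355000. Another stretch, at Gm11211, followed after 15 kb, so that 17 listed bins lay between 62255001 and 62420000, the most in any group of neighbouring stretches. Prkce, the epsilon isoform of protein kinase C, held 10 member bins in 2 stretches of chromosome 17 between 86625001 and 86730000, with the nearest bin centre 60.4 kb from its start. Arhgef3, a guanine nucleotide exchange factor, held 9 member bins in 2 stretches on chromosome 14, and with another, intergenic stretch before its start 13 listed bins lay between 27960001 and 28150000. Srgap3, a GTPase-activating protein for RAC, held 7 member bins in 2 stretches. Shb, an adaptor with an SH2 domain, held 6 listed bins of 7 inside the gene. These genes are grouped here by role after their values were seen, so the grouping supports nothing.

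Other genes among those named by the number of their bins are given next, again ordered by role after their values were seen. Pdzd2, a protein of several PDZ domains, held 11 member bins in 2 stretches of chromosome 15, the first with 6 of 7 bins listed and the second with 5 of 5. Col6a6 held 7 member bins in 2 stretches, and these, at Col6a6 and Col6a5, 2 neighbouring genes for collagen VI chains, held 10 listed bins on chromosome 9 between 105660001 and 105775000. Col17a1, a transmembrane collagen of the epidermal junction, held 5 listed bins of 7 on chromosome 19, all exon bins, of which 2 were also on the ES list. The stretches called by Parvb and its neighbour Parvg, which encode actin-binding parvins of integrin adhesions, had 4 of 4 and 7 of 16 bins listed on chromosome 15. In the Parvb stretch 1 bin centre was at the start of the gene and 3 were upstream of it, and in the Parvg stretch 2 were in the gene, 1 upstream and 4 beyond its end, up to 44.1 kb. The stretch called by Krt7, a keratin of simple epithelia, had 6 of 10 bins listed, 3 of them in the gene and 3 intergenic, 185 kb from the Acvr1b stretch on chromosome 15.

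The remaining stretches of 6 or 7 bins were varied. In their genes, Tmem104, a transmembrane protein, held 6 of 8 bins at 18.9 CpG per kb in the median, Ccbe1, a secreted factor of lymphatic development, held 6 of 8, Hspa12a, an HSP70 family member, 6 of 8, Filip1, a filamin-interacting protein, 6 of 8, and Lingo1, a neuronal surface protein, 6 of 9. The stretch of Ptpru, a receptor tyrosine phosphatase, had 6 of 11 bins listed, 5 of them in the gene and 1 intergenic. Outside genes, 7 of 9 bins were listed 10.6 kb from Adamts20 on chromosome 15, from 94045001 to 94090000, 6 of 8 nearest to Cdc7 on chromosome 5, and 6 of 11 nearest to Gm10655 on chromosome 9. At Gm20388 itself 7 of 11 bins were listed from 123855001 to 123910000 on chromosome 8. In all, 33 member bins in 6 stretches fell in that wide model.

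A 7-bin stretch nearest to Ppara, on chromosome 15 from 85485001 to 85540000, held 7 listed bins of 11 and ended over a microRNA locus. The last listed bin, from 85535001, contains Mirlet7c-2 and Mirlet7b. The let-7 family is known for promoting differentiation and is low in ES cells. Their mature 5p strands are printed from RefSeq (GRCm38.p6), 5′ to 3′, with the seed, bases 2 to 8, in capitals, to show that both share it.
mmu-let-7c-5p: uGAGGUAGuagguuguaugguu
mmu-let-7b-5p: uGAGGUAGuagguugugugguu
In all, 4 of 1468 annotated miRNA genes (0.272%) lay in a dense bin, the other two being AL772376.1, within Shb, and Mir694, while dense bins were 0.156% of all bins. In all listed MEF bins there were 23 (1.57%), near the 1.86% of all bins that were listed, and with so few genes nothing is read from these shares.

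The stretch on chromosome 9 from 3000001 to 3040000 had the most repeated sequence. It held 7 listed bins of 8 over an array of predicted genes, among them Gm17535, and 91.9% of its 32-base words occurred more than once in the genome. Of the 155 stretches, 1 exceeded 50% by this measure and 2 exceeded 20%, so reads from this array could have come from more than 1 copy and its listing cannot be placed with the same certainty.

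**Figure D2:**
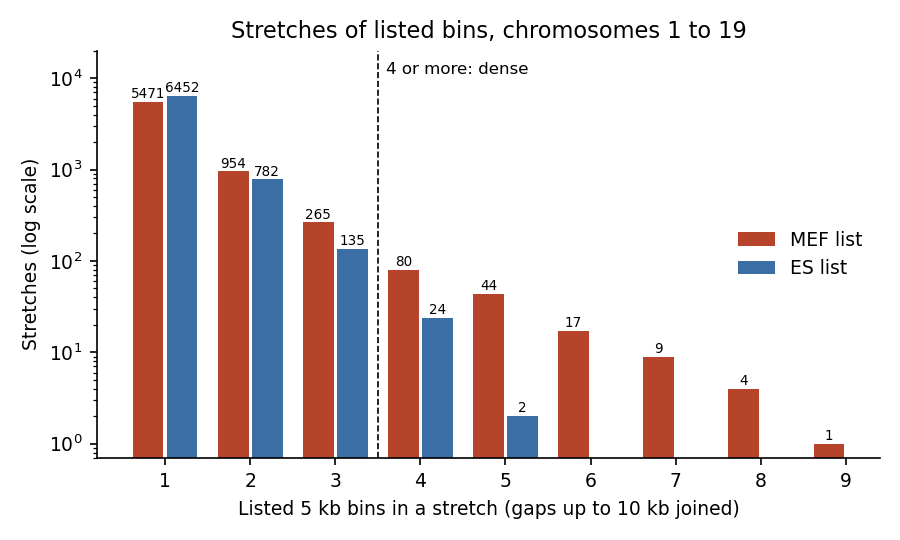
Number of merged stretches of each size, in listed bins per stretch, in MEFs and in ES cells, on a log axis. MEF stretches reach 9 listed bins and ES stretches reach 5.

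Dense stretches held 8.36% of the listed bins in MEFs, against 1.24% (1.02% to 1.5%) in ES cells, where the same rule gave 26 dense stretches among 7395, with 106 of 8527 listed bins. MEFs had 31 stretches of 6 or more bins, with 206 bins in all, while the longest ES stretches were 2 of 5 bins. In MEFs the numbers ran from 80 stretches of 4 bins through 44 of 5, 17 of 6, 9 of 7 and 4 of 8 to 1 of 9. Just inside the threshold, the 80 MEF stretches of 4 bins had a median span of 30 kb and 12.6 CpG per kb, against 20 kb and 11 CpG per kb in the 265 stretches of 3 bins just outside it. The dense MEF stretches spanned 20 to 85 kb, 35 kb in the median, and 5.695 Mb in all, of which 65.5% was listed. Bins were not always adjacent: 14 stretches had no unlisted bin, and in 15 no listed bins touched. Each cell type rests on 1 library per genotype, so the difference in clustering between MEFs and ES cells was not tested, and the sequencing depth behind each list is unknown.

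Besides 0610012H03Rik, the fully listed stretches were 13 of 4 or 5 bins. Those of 5 were 1 nearest to Sash1 and the second of Pdzd2. Those of 4 lay in Ddc, an enzyme of dopamine and serotonin synthesis, Kcnk5, a potassium channel, Prr5l, Cachd1, Auts2, Plekha7 and the second stretch of Arhgef3, mostly upstream of Parvb, and nearest to Zmiz1, Slc24a5 and 3100002H09Rik.

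Members were compared with the ES list, which the rule did not use. Of the 746 dense MEF bins, 38 or 5.09% (3.63% to 6.92%) were also listed in ES cells, against 4.50% (4.06% to 4.97%) of the other MEF bins, 4.33% (2.54% to 6.84%) of the 393 unlisted bins inside the stretches and 1.78% of all bins. The intervals of the first 3 shares overlap, and the differences were not tested. The 38 bins lay in 35 stretches, 11 of them of 6 or more bins and 24 of 4 or 5, and in 3 stretches, at Macrod1, Col17a1 and the second of Prkce, 2 bins were shared. The stretches of 4 or 5 bins with 1 shared bin lay at Klhl29, Gm13936, the first of Rgs3, Gm15830, Col6a6, Slc41a2, Gm16898, Parvb, Abtb2, Lrrc8d, Slc10a6, Acvr1b, Srgap3 and Mtss1, and before Arhgef3. Others with 1 shared bin lay at Zfpm1, which encodes a cofactor of GATA proteins, Nfib and Glis3, transcription factors, Bcl2l11, the apoptosis inducer BIM, Angpt4, an angiopoietin, and Aqp5, a water channel. In 1 case only did a dense ES stretch overlap a dense MEF stretch: nearest to Gm10655 on chromosome 9 the MEF stretch ran from 61105001 to 61160000 and the ES stretch from 61135001 to 61165000, with 1 bin in common.

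By gene, 85 of the 154 genes with a dense bin, 55.2% (47.0% to 63.2%), had an ES bin, against 41.5% (39.9% to 43.2%) of the 3488 genes with other MEF bins only. The median length was 66.0 kb in the first set and 50.5 kb in the second. Of all genes, 13.7 kb long in the median, 20.7% had an ES bin. The first set includes 3 wide models that contain 10 or more other genes. The part of length in these differences was not tested. Of the genes with a dense bin, 132 were protein coding and 50 had a member bin at their promoter. Among those 50 are predicted genes of the repeated array on chromosome 9, where all 7 listed bins were promoter bins.

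**Figure D3:**
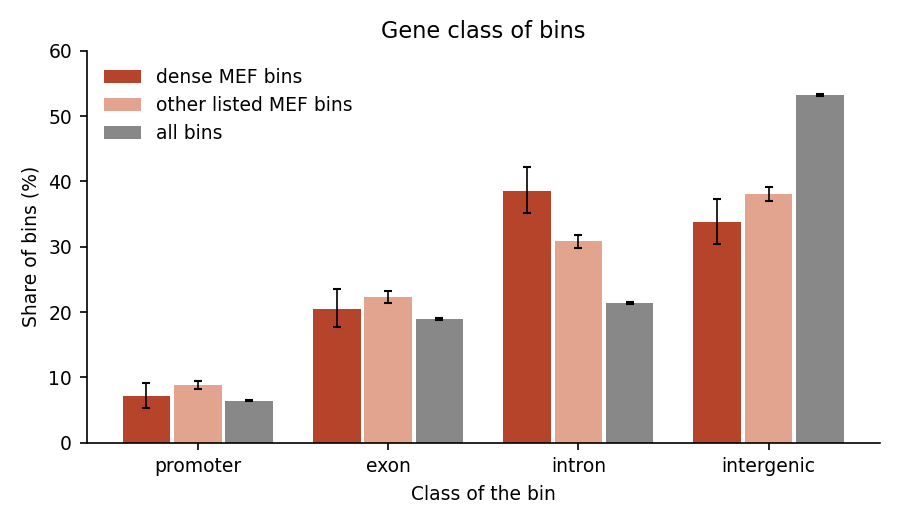
Share of bins in promoter, exon, intron and intergenic classes, in percent, for dense MEF bins, other listed MEF bins and all bins, with 95% exact binomial intervals as bars. Dense MEF bins are 38.6% intron, other MEF bins 30.9% and all bins 21.4%.

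With all gene models used, the largest class among the dense MEF bins was intron. A bin was put in the first class that it overlapped, of promoter, exon, intron and intergenic. Of the 746, 288 or 38.6% (35.1% to 42.2%) were intron bins, against 30.9% (29.9% to 31.9%) of the other MEF bins and 21.4% of all bins. Exon bins were 20.5% (17.7% to 23.6%), against 22.3% of other MEF bins and 18.9% of all bins. Promoter bins were 7.10% (5.37% to 9.19%), against 8.81% and 6.44%. Of these 53 promoter bins, 7 were those of the repeated array on chromosome 9, and the share without them was not computed. Intergenic bins were 33.8% (30.4% to 37.3%), against 38.0% and 53.2%. Of the 288 intron bins, 27 were intronic only through models that contain 10 or more other genes. With these 27 counted as intergenic, the largest class was intergenic and no longer intron. Without such models intron bins were 35.0% (31.6% to 38.5%) of dense bins, against 30.6% (29.6% to 31.6%) of other MEF bins and 21.3% of all bins, so that the intervals of the dense and the other MEF bins, apart with all models, then met. The difference was not tested. The unlisted bins inside the same stretches, which the MEF list did not hold, were 38.9% intron and 5.09% promoter bins. By the class of the bin's midpoint, 59.0% of dense bins were intron bins, against 51.6% of other MEF bins and 37.4% of all bins.

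By stretch, 120 hit a gene and 35 hit none. In 83 all listed bins overlapped 1 gene or the 5 kb upstream of it, and in 72 all bin centres lay in the body of the gene. A promoter bin was held by 37 stretches, 33 were wholly intergenic and 23 wholly intronic. In the 120 stretches with a gene, 444 bin centres lay in the body of that gene, 92 upstream of its start and 44 beyond its end, and 31 stretches ran across a start. Stretches that hit only the wide model Gm20388 are included in the counts 120, 83, 72, 23 and 444. Within gene bodies of ordinary width, 41.8% (37.2% to 46.6%) of 435 dense bins lay in the first of 3 equal parts of the gene, against 37.1% of other MEF bins and 33.4% of all bins. The 35 stretches outside genes lay 2.94 to 208 kb from the nearest coding start, 64.1 kb in the median, and 10 of them over 100 kb away.

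**Figure D4:**
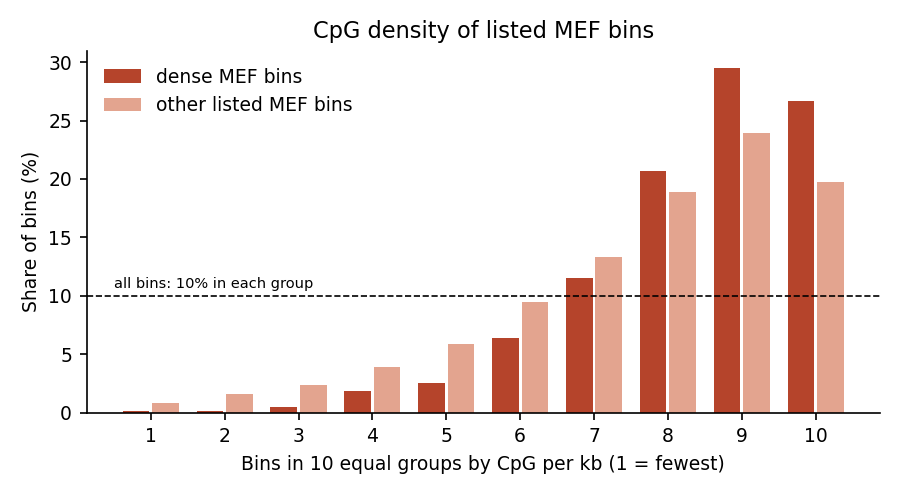
Share of dense MEF bins and of other listed MEF bins, in percent, in each of 10 equal groups of all bins ranked by CpG per kb, group 1 having the fewest. The dashed line marks the 10% of all bins in each group. Dense bins reach 29.5% in group 9 and 26.7% in group 10, against 23.9% and 19.7% of other listed MEF bins.

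The dense stretches were moderately rich in CpG. The median was 12 CpG per kb (11.8 to 12.4) in dense MEF bins, against 10.8 (10.8 to 11) in other MEF bins, 11.2 (10.8 to 11.8) in unlisted bins inside the stretches and 7.2 in all bins. Of the dense bins 700, or 93.8%, were above the median of all bins, against 83.9% of other MEF bins, and in 124 of 155 stretches even the poorest listed bin was. GC content was 47.3% in the median of dense bins, 45.2% in other MEF bins and 41.4% in all bins. Where a stretch had unlisted bins inside, which was so in 141, the listed bins were higher in CpG in 89 and lower in 51, with a median difference of 0.65 CpG per kb.

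This CpG content was mostly not that of CpG islands. Bins with a window meeting the island measures were 33 of the 746, 4.42% (3.06% to 6.16%), against 4.96% of other MEF bins, 4.10% of all bins and 11.3% of dense ES bins. In 129 stretches no listed bin held such a window. The CpG observed to expected ratio was 0.218 in the median, 0.212 in other MEF bins and 0.169 in all bins. The dense MEF bins had a median of 12 CpG per kb and 7.10% promoter bins, against 14.2 CpG per kb and 15.1% in the 106 dense ES bins, and these differences were not tested.

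At promoters, 21 of the 50 genes with a member promoter bin had a RefSeq entry by symbol, and 20 entries of 19 genes were located in a member bin. They held 11 CpG per 250 bases in the median, from 1 to 38, against 6 over all 32851 entries. GGGCGG, searched on both strands, was in 14 of the 20 (70.0%), against 32.7% of all entries, and TATAAA in 2, against 12.4%. These entries are few and are a description of letters, not of factor binding. The same shares for promoters in the other listed MEF bins were not computed, so nothing here is particular to dense stretches.

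**Figure D5:**
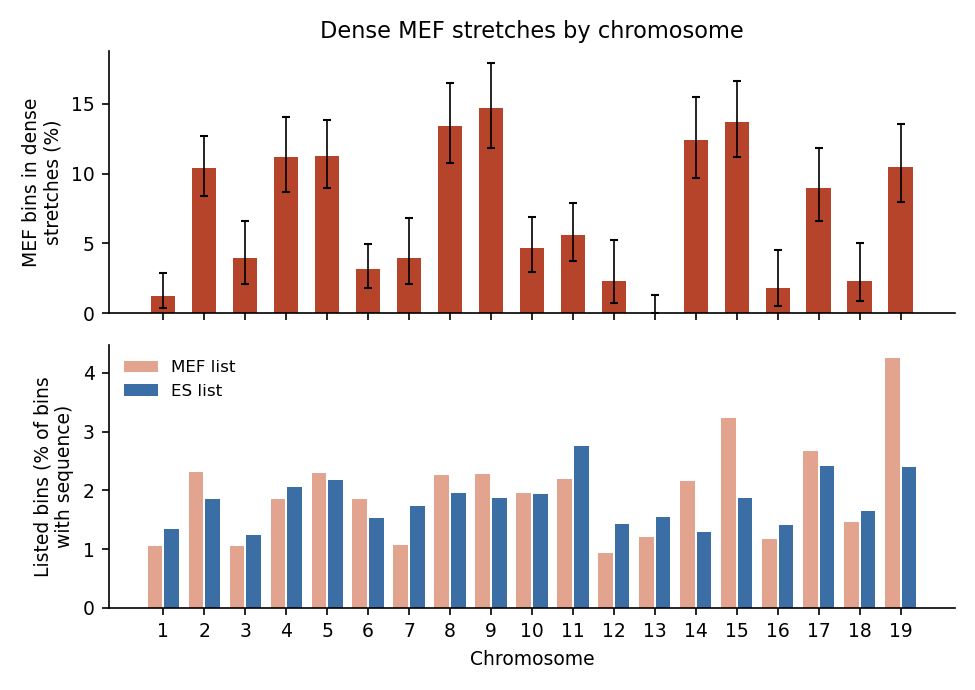
The upper panel gives dense MEF bins as a share of each chromosome's own listed MEF bins, in percent, with 95% exact binomial intervals, and the lower panel the share of each chromosome's bins on the MEF and ES lists. Chromosome 9 has the highest share, 14.7%, which includes the 7 bins of its repeated array, and chromosome 13 has none.

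Dense stretches were unevenly spread over chromosomes. They occurred on 18 of 19, with none on chromosome 13, where 0 of 282 listed bins were members, which allows a share of up to 1.3%. The 9 chromosomes with 10 or more stretches (2, 4, 5, 8, 9, 14, 15, 17 and 19) held 131 stretches and 632 bins, 84.7% of the members, on 45.7% of the length and with 59.9% of the listed MEF bins and 50.2% of the listed ES bins. As a share of a chromosome's own listed bins, members were 14.7% on chromosome 9 (81 of 552), 13.7% on chromosome 15 (89 of 649), 13.4% on chromosome 8 and 12.4% on chromosome 14, against 1.24% on chromosome 1 (5 of 402) and 1.80% on chromosome 16. The 81 bins of chromosome 9 include the 7 of the repeated array, and its rank above chromosome 15 rests on them. The share of all bins listed in MEFs also varied, from 4.26% on chromosome 19 and 3.23% on chromosome 15 to 1.05% on chromosome 1 and 0.932% on chromosome 12. Where more bins are listed, more of them can fall close together by the rule. The share listed and the share that were members did not always go together. Chromosomes 4 and 6 had 1.85% and 1.86% of their bins listed, and 11.2% and 3.13% of those were members. On chromosome 19, with the highest share listed, 10.5% were members. The part of the number of listed bins in the spread over chromosomes was not tested.

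Dense stretches also lay near each other. Of 137 neighbouring pairs on the same chromosome the median gap was 3110 kb, while 9 pairs lay within 20 kb and 28 within 500 kb. Joined at gaps of up to 200 kb, they formed 19 groups of 2 or 3 stretches, among them those at Rgs3, Arhgef3, Wt1, Hoxb3, Pdzd2, Prkce and Col6a6. Chromosome 15 had 5 of these groups, including Parvb with Parvg, the stretches nearest to Wnt7b and Ppara, and Acvr1b with Krt7. A gap slightly over 10 kb would have joined some of them, since 5 pairs were 15 kb apart.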

How the data were processed

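Fragments with 5hmC were captured and sequenced in 4 libraries, 1 per group. The submitters' processing notes name BWA, SAMtools 1.3.1 and the build mm9 without saying what each was used for. The caller, its threshold and any input were not given in the sources used here. Read depth is unknown. What the authors deposited is of another kind than a level: each list holds the chromosome, start, end and running number of 5 kb bins, with no count, fold, p-value or direction.

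Listed bins were joined as described with Python 3.11.15, numpy 2.4.6, pandas 2.3.3 and scipy 1.17.1, and the joining was tested on simulated data. The running numbers of the bins were checked against NCBIM37 with pysam 0.24.0. Genes were protein-coding, lincRNA and processed transcript models of GENCODE M1. Sequence measures used only bins with at most 50% undetermined bases. Repeats were the share of 32-base words, sampled 1 in 64, that occur more than once. A stretch was called by the gene whose body plus 5 kb upstream held most of its listed bins, with models containing 10 or more other genes used last.

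The stretches named are those with 6 or more bins, and of the rest those fully listed, those with an ES bin and those at a listed gene, plus genes with bins in 2 or more stretches and the 10 genes with most member bins. Dact2 and Zfhx3 are named besides these, as genes left out of a list. Members and gene lists were chosen with earlier results of these data known. Keeping the printed windows outside exons was decided after the lists were read. No test was made, since each group has 1 library. Alternatives were other gaps, other bin minimums, repeat, chromosome and X settings, midpoint classes and touching ES bins.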

Additional observations from a re-analysis of the deposited data

How the results depend on the processing

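How many stretches count as dense depends on the rule. With gaps of at most 5 kb there were 98 dense MEF stretches with 452 bins, and with gaps of at most 20 kb 264 stretches with 1374 bins and 289 genes. With touching bins only there were 32 stretches with 139 bins, 11 CpG per kb and 32 genes. With 3 or more bins there were 420 stretches, 1541 bins, 11.6 CpG per kb and 338 genes, and with 5 or more 75 stretches, 426 bins and 83 genes. Dense ES stretches numbered 10, 98, 2, 161 and 2 under these 5 settings. Intron bins were 59.0% by the midpoint and 35.0% without the wide models (a setting chosen after seeing the data), and 12.7% of dense MEF bins had an ES bin at the same place or touching, against 11.3% of other MEF bins. Of 53 alternative values these 19 moved beyond 1.5 times for counts or beyond the interval for other values, and the other 34 did not. No paired analysis was possible because each group has 1 library and no result comes from a test. The precision of the lists themselves is limited by unknown depth and by 1 library per group.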

Other observations

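On chromosome X the MEF list held 52 bins, with no stretch of more than 2, against 18 bins on the ES list. Stretches were not formed on the other sequences outside chromosomes 1 to 19. Among unplaced sequences (Un_random) it held 20 bins, against 4 on the ES list, and on the mitochondrial genome 3, against 2.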
